A study of Mus musculus with 10 samples.

Results

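The classical cadherins and catenins followed here are 9 of the 55486 genes in the count table: the cadherins Cdh1, Cdh2, Cdh3 and Cdh11, the α-catenins Ctnna1 and Ctnna2, β-catenin (Ctnnb1), plakoglobin (Jup) and p120-catenin (Ctnnd1). They were picked out of the table by gene name, and each had 1 row in it. The study asked how mammary fibroblasts respond to cells of invasive lobular carcinoma (ILC), a breast tumor type defined by loss of E-cadherin. RNA was sequenced in 10 libraries, sorted by color after 7 days of culture in 5 gels of collagen and basement membrane extract. Normal fibroblasts (NFs) grew alone in gel 1, tumor cells alone in gel 2 (line 13-MCB-17) and gel 3 (line 10-SJK-221), and both kinds together in gel 4 (with 13-MCB-17) and gel 5 (with 10-SJK-221).

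NFs were isolated from mTmG mice at 8 weeks of age, whose cells are red (Tomato) until Cre recombinase switches them to green (GFP). They were sorted as cells without EpCAM, CD49f, CD45 and CD31 and split by the surface protein CD26. CD26+ NFs had been made green with an adenovirus carrying Cre and CD26- NFs stayed red, so the subset and exposure to the virus cannot be told apart. Both subsets shared each NF gel, which gave 1 library per subset from gel 1 and 2 libraries per subset from gels 4 and 5. The tumor cells carried WapCre, in which a milk protein promoter drives Cre in mammary epithelium, with both copies of Cdh1 floxed (Cdh1F/F) and a further floxed gene that all 4 tumor libraries share. Each tumor line appears once alone and once in co-culture, no tumor line with intact Cdh1 is compared here, and a count per gene does not show whether the floxed exons were read. NFs alone were sequenced from 1 gel, so a difference between co-cultured NFs and NFs alone cannot be told apart from a difference of that gel. The same limit holds for tumor cells against NFs grown alone, and for any comparison of co-culture changes between the cell types. No source gives separate mice for the gels, so the p-values measure the spread between these libraries, which may be technical.

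Classical cadherins are transmembrane proteins that join neighboring cells in adherens junctions. Their cytoplasmic tails bind p120-catenin, which stabilizes the cadherin at the membrane, and either β-catenin or plakoglobin, which recruit α-catenin and through it the actin cytoskeleton. E-cadherin (Cdh1) is the main cadherin of mammary epithelium, P-cadherin (Cdh3) is known from myoepithelial cells, and N-cadherin (Cdh2) and cadherin-11 (Cdh11) are known from mesenchymal cells, fibroblasts among them.

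In GRCm38, Cdh1 (chromosome 8, 106603351 to 106670246, plus strand) and Cdh3 (chromosome 8, 106510891 to 106557297, plus strand) are neighbors, and Cdh11 lies on the same chromosome (102632095 to 102785642, minus strand). Jup lies on chromosome 11 (100368958 to 100397763, minus strand) and Ctnnb1 on chromosome 9 (120929216 to 120960507, plus strand). Some exons are shared with other genes, so those counts are uncertain. Of the exon bases of Ctnnd1, 61.2% also belong to Gm28635 on the same strand, against 15.1% for Ctnnb1 (with Ulk4 on the other strand and Mir7090) and 1.48% for Ctnna1.

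β-catenin and plakoglobin are close homologs that compete for the same place on the cadherin tail, and the ratio of their levels differed between the cell types, as the values further on show. Their promoters, the 250 bases before the RefSeq start site on the gene's own strand (GRCm38.p6), are printed with each CG dinucleotide in capitals. RefSeq gives Ctnnb1 2 start sites with overlapping windows, of which the upstream one, chr9:120933150-120933399 (plus strand), is printed, and the Jup window is chr11:100397791-100398040 (minus strand).
Ctnnb1: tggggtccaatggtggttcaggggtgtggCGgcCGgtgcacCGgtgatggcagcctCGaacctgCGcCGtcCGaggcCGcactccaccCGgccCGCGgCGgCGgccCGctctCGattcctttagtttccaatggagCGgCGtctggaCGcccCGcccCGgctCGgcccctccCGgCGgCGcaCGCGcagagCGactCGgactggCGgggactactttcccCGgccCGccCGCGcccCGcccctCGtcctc
Jup: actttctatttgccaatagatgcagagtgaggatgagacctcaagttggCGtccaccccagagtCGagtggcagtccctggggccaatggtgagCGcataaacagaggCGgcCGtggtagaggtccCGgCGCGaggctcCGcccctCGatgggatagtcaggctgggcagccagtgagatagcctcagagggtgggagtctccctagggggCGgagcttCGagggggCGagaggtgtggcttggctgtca
The printed Ctnnb1 window held 35 CG and the Jup window 13, and the other Ctnnb1 window (chr9:120933328-120933577) held 43. Over 32851 RefSeq windows of the same length the median was 6 CG, 2.97% held at least as many as the printed Ctnnb1 window, 0.712% at least as many as the other one and 31.5% at least as many as the Jup window. Of the 9 members, 4 had a window in that table (Ctnnb1, Jup, Ctnna2 and Ctnnd1).

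The libraries held 14142334 to 18408940 counts, so 3 counts correspond to 0.163 to 0.212 CPM (the count of a gene per 1000000 counts of its library). The labels were checked against marker lists. In tumor libraries the 12 epithelial markers summed to 4331 to 5702 CPM, and Krt8 and Krt18, keratins of luminal epithelium, ranged from 789 to 1468 CPM. Epcam and Krt18 were at 0 counts in both NF libraries of gel 1, where the epithelial list summed to 2.25 and 2.98 CPM. The 4 NF libraries of gels 4 and 5 reached sums of 122 to 329.6 CPM, with 12 of 12 markers above 3 counts. The 12 fibroblast markers summed to 31310 to 84190 CPM in NFs and to 43.3 to 183 CPM in tumor cells, where Pdgfra, a growth factor receptor of fibroblasts, had 35.6 to 67.7 CPM. Dpp4, which encodes CD26, gave 4 (gel 1), 12 (gel 4) and 4 counts (gel 5) in the green NFs and 0, 0 and 1 in the red ones. Over the 10 libraries the myoepithelial list summed to 15.7 to 105 CPM, the endothelial list to 5.03 to 32.2 CPM, while the pericyte list summed to 4.07 to 24.9 CPM in tumor cells, 43.2 and 85.6 CPM in the NFs of gel 1 and 206 to 554 CPM in those of gels 4 and 5.

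The 2 cell types used different cadherins, and this held in every library. On the RPKM scale (CPM per kilobase of exon, which allows levels of different genes to be compared), Cdh11 made up 83.9% to 92.8% of the summed level of the 4 cadherins in the 6 NF libraries. In the 4 tumor libraries Cdh1 led, with 95.2% (13-MCB-17) and 93.3% (10-SJK-221) alone and 83.9% and 79.3% in co-culture. Cdh2 was the second cadherin of both cell types. Its share was 5.37% to 9.66% in NFs, 4.82% and 6.69% in tumor cells alone, and 16.0% and 20.7% in co-cultured tumor cells, where the groups of tumor libraries did not overlap.

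The summed cadherin level was highest in NFs alone, at 143 RPKM (CD26-) and 86.2 RPKM (CD26+), and ranged from 38.2 to 67.7 RPKM in co-cultured NFs. In tumor cells it was 54.8 and 63.0 RPKM alone and 37.4 and 38.6 RPKM in co-culture. α-catenin and β-catenin did not follow that order. The summed α-catenin level was 31.1 to 38.5 RPKM in NFs and 92.5 to 116 RPKM in tumor cells, and β-catenin plus plakoglobin gave 111 to 155 RPKM in NFs and 212 to 219 RPKM in tumor cells. Plakoglobin was 1.57% to 5.52% of that sum in NFs and 20.1% to 24.5% in tumor cells.

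**Figure D1:**
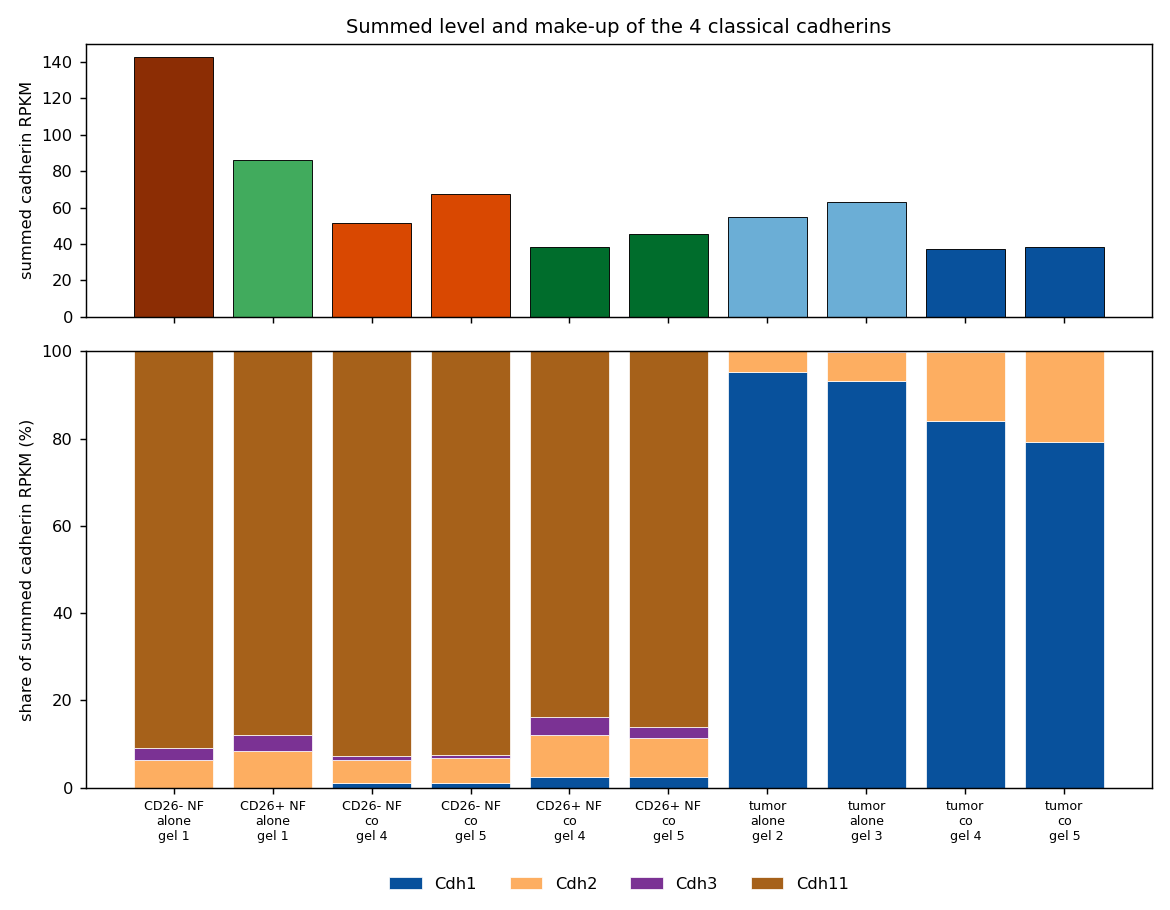
Top, the summed level of Cdh1, Cdh2, Cdh3 and Cdh11 in each library, in RPKM. Bottom, the share of each of the 4 in that sum, in percent, with 1 bar per library ordered by cell type and culture. Cdh11 (brown) fills 83.9% to 92.8% of the NF bars and Cdh1 (blue) 79.3% to 95.2% of the tumor bars, and the Cdh2 segment (orange) of tumor cells grows from 4.82% and 6.69% alone to 16.0% and 20.7% in co-culture.

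Tumor cells and NFs grown alone differed in 7 of the 9 members, 3 higher and 4 lower in tumor cells, at an adjusted p under 0.05 (edgeR, adjusted over all tested genes). Of all 17048 genes tested, 55.5% passed the same rule. The members' median log2 difference was 0.23, against -0.02 over all genes tested. In the gels shared by both cell types, 8 of 9 members passed, 5 higher and 3 lower in tumor cells, against 51.8% of all genes. The members' median there was 0.58, against -0.06 over all genes. Of the called genes in the shared gels 46.7% were higher in tumor cells, and 56.7% where library totals replaced TMM scaling.

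E-cadherin RNA marked the tumor libraries. Cdh1 had 239 CPM (gel 2) and 269 CPM (gel 3) where tumor cells grew alone, 144 CPM (gel 4) and 139.9 CPM (gel 5) where they were co-cultured, and 0 counts in both NF libraries of gel 1. Against a floor of 3 counts over the group, that is at least 2554-fold higher in tumor cells alone. Co-cultured NFs had 2.42 and 4.43 CPM (CD26- and CD26+, gel 4) and 3.57 and 5.23 CPM (gel 5). In the shared gels Cdh1 was 32.3-fold higher in tumor cells (log2 difference 5.01 ± 0.18 SE, adjusted p = 5.235e-07). NF and tumor libraries did not overlap in either culture.

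The trace of Cdh1 in co-cultured NFs had the size of the epithelial markers there. It stood at 1.69% and 3.09% of the tumor level of the same gel in gel 4 (CD26- and CD26+) and at 2.55% and 3.74% in gel 5. The medians of the 12 epithelial markers were 2.02% and 3.24% in gel 4 and 2.2% and 5.03% in gel 5, with ranges from 0.827% (Cldn7) to 17.7% (Krt19). Each NF library then had that median share of its gel's tumor counts subtracted, with negative results set to 0. This left 0 Cdh1 counts in 3 of the 4 libraries and 9 counts in CD26- NFs of gel 5. The outcome follows from the shares just given, which lay below the median in those 3 libraries, and adds nothing to them. The source of this Cdh1 RNA was not tested. With the subtracted counts, the Cdh1 difference of tumor cells to NFs in the shared gels was 11.36 ± 0.56 SE. Its size rests on the 9 NF counts left. In these bulk libraries, fewer cells of a type and less RNA per cell cannot be told apart.

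Cadherin-11 was the mirror image. It had 1155 and 675 CPM in NFs alone (CD26- and CD26+), 428 and 285 CPM in gel 4 and 558 and 349.7 CPM in gel 5, and 1 to 4 counts in each of the 4 tumor libraries. Grown alone, the 3 tumor counts against 28225 in NFs gave a ratio of 10580 in CPM (95% interval 3619 to 51300 from counting error only). In the shared gels the log2 difference was -11.10 ± 0.35 SE (adjusted p = 4.492e-07). Tumor cells held 0.0635% (gel 4) and 0.0377% (gel 5) of the mean NF level, where the medians of the 12 fibroblast markers were 0.106% and 0.173%. With those median shares subtracted, 0 Cdh11 counts were left in co-cultured tumor cells. The fitted difference was then -15.8 ± 0.53 SE, whose size is no bound.

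P-cadherin RNA was at or near 0 in tumor cells. Cdh3 had 17.5 and 13.6 CPM in NFs alone (CD26- and CD26+), 1.76 and 6.55 CPM in gel 4 and 1.67 and 5.30 CPM in gel 5. The tumor libraries held 0 and 2 counts alone and 0 counts in both co-cultures. The ratio of NFs to tumor cells was 268 alone (95% interval 73.7 to 2216, counting error only) and at least 43.4 in the shared gels, and both comparisons passed the test (adjusted p = 3.243e-05 and 0.000115). Cdh1 and Cdh3, neighbors on chromosome 8, thus had opposite distributions over the cell types.

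N-cadherin changed its order between cultures. Alone, Cdh2 was higher in NFs, with 72.7 and 58.6 CPM against 21.3 and 34.0 CPM in tumor cells, a log2 difference of tumor cells to NFs of -1.38 ± 0.27 SE (adjusted p = 0.00272). In the shared gels it was higher in tumor cells, with 48.3 CPM against 22.4 and 29.7 CPM in gel 4 and 64.3 CPM against 31.4 and 32.7 CPM in gel 5 (log2 difference 0.75 ± 0.22 SE, adjusted p = 0.0212). The groups did not overlap in either culture. The call in the shared gels was lost when CD26- NFs of gel 4 (adjusted p = 0.0652), CD26+ NFs of gel 4 (0.0810), CD26+ NFs of gel 5 (0.0539) or tumor cells of gel 5 (0.1535) were left out, with log2 differences from 0.55 to 0.80. Tumor cells held 185% and 201% of the mean Cdh2 level of the NFs of their gel. The 12 fibroblast markers had medians of 0.106% and 0.173% there and reached 8.94% and 9.92% (Pdgfra). With that median share of NF RNA subtracted from the tumor libraries, and the epithelial share from NFs, the difference was 0.76 ± 0.23 SE and passed (adjusted p = 0.0215).

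α-catenin 1, the form found in most tissues, was higher in tumor cells. In tumor cells Ctnna1 reached 608 CPM (gel 2) and 746 CPM (gel 3) without NFs and 594 CPM (gel 4) and 679 CPM (gel 5) with them, against 199.7 to 239 CPM over the 6 NF libraries. The log2 difference was 1.48 ± 0.17 SE alone (adjusted p = 0.000150) and 1.34 ± 0.14 SE in the shared gels (adjusted p = 8.862e-05). α-catenin 2, known from neurons, was nearly confined to NFs alone, with 8.94 and 5.05 CPM there and 0 counts in tumor cells alone, at least 81.0-fold lower. In the shared gels Ctnna2 had 2 to 10 counts in NFs and 0 and 1 in tumor cells, a ratio of 12.2 (95% interval 1.97 to 503, counting error only). Its call there (adjusted p = 0.0410) was lost without tumor cells of gel 4 (0.157) or gel 5 (0.0708) or without CD26- (0.105) or CD26+ NFs (0.1355) of gel 5.

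β-catenin RNA did not pass the test between cell types. Ctnnb1 stood at 910 and 869.6 CPM in the tumor cells of gels 2 and 3, at 840.2 and 837 CPM in those of gels 4 and 5, and at 542 to 777 CPM in NFs, so every tumor library was above every NF library. The log2 difference was 0.39 ± 0.15 SE alone (adjusted p = 0.0527) and 0.16 ± 0.13 SE in the shared gels (adjusted p = 0.325), and neither passed. It passed in both cultures with library totals in place of TMM scaling (0.52, adjusted p = 0.0144, and 0.36, adjusted p = 0.0362), and alone with DESeq2 (0.35, adjusted p = 0.0374).

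Plakoglobin, which also serves desmosomes, separated the cell types. Tumor cells held 283 and 332 CPM of Jup in gels 2 and 3 and 337 and 329 CPM in gels 4 and 5, while NFs held 11.3 and 19.5 CPM in gel 1 and 30.6 to 39.3 CPM in gels 4 and 5. It was 18.9-fold higher in tumor cells alone (log2 difference 4.24 ± 0.20 SE, adjusted p = 1.127e-06) and 8.39-fold higher in the shared gels (3.07 ± 0.15 SE, adjusted p = 1.555e-06). Per exon length, Jup stood at 44.0 to 52.4 RPKM in tumor cells beside 161 to 175 RPKM of Ctnnb1, and at 1.76 to 6.10 RPKM in NFs beside 104 to 149.7 RPKM.

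p120-catenin differed in the shared gels. Ctnnd1 had 58.6 and 57.6 CPM in co-cultured tumor cells against 32.6 to 36.0 CPM in co-cultured NFs (log2 difference 0.58 ± 0.13 SE, adjusted p = 0.00496). Alone, 53.7 and 63.1 CPM in tumor cells stood beside 47.8 and 42.8 CPM in NFs, and the difference of 0.23 ± 0.15 SE did not pass (adjusted p = 0.209). The difference between those differences is given with the co-culture results, and its own test did not pass.

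**Figure D2:**
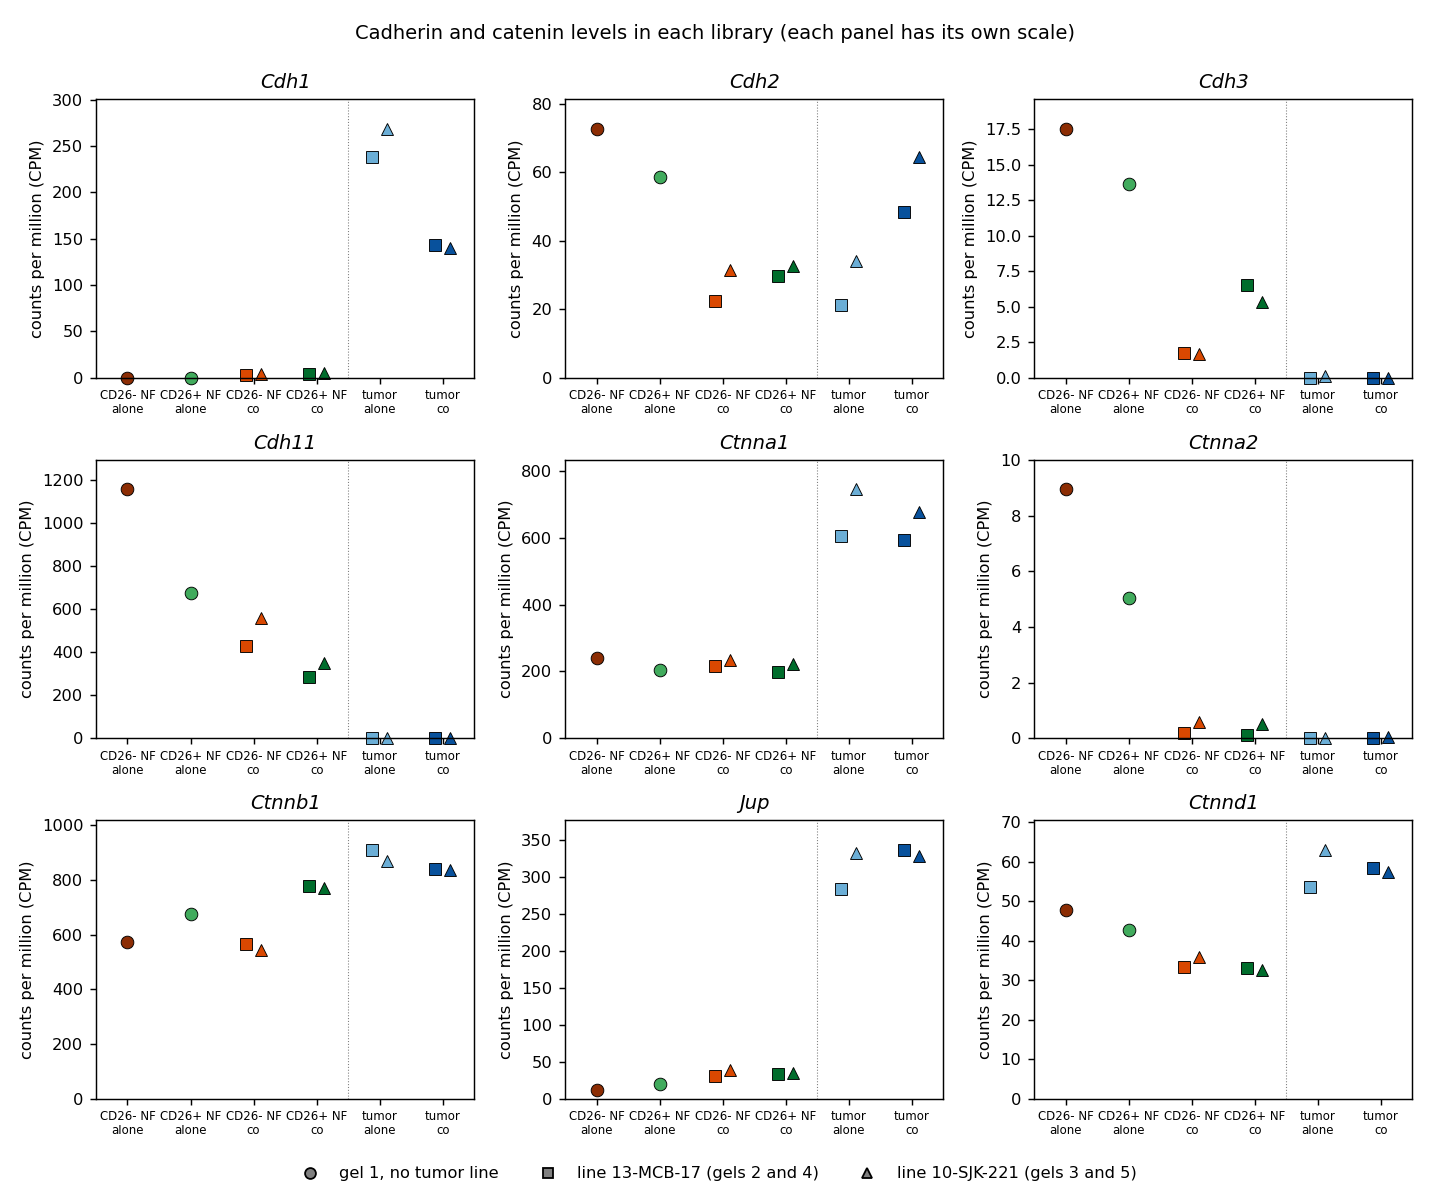
Level of each member in each of the 10 libraries, in CPM on a linear axis from 0, with a separate scale per panel. Each point is 1 library, its color gives the cell type and culture, and its shape the gel without a tumor line (circle) or the tumor line (square 13-MCB-17, triangle 10-SJK-221). Cdh1, Ctnna1 and Jup stand high in the tumor libraries right of the dotted line, Cdh3, Cdh11 and Ctnna2 in the NF libraries, and Cdh2 is high in NFs alone (58.6 and 72.7 CPM) and in co-cultured tumor cells (48.3 and 64.3 CPM).

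In tumor cells, co-culture with NFs went with less E-cadherin and more N-cadherin RNA. Of the 6 members that could be tested, 1 rose and 1 fell, against 22.3% of 13197 genes called in either direction (median -0.07 for the members and 0.010 for all genes). Cdh3, Cdh11 and Ctnna2 had too few counts. Cdh1 was lower in co-culture in both lines, by 0.76 (13-MCB-17) and 0.95 (10-SJK-221) on the log2 scale of TMM-scaled CPM, and fell by 0.86 ± 0.11 SE in the fit with a term for line (adjusted p = 0.00104), a 1.82-fold decrease. Cdh2 was higher by 1.15 (13-MCB-17) and 0.91 (10-SJK-221) and rose by 1.02 ± 0.12 SE (adjusted p = 0.000757), a 2.03-fold increase. For both genes the 2 libraries alone and the 2 in co-culture did not overlap. The share of all genes that separate this way is not given here, so this adds no support to the tests.

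These tumor calls rest on 4 libraries. Without the term for line neither passed (adjusted p = 0.0981 for Cdh1 and 0.182 for Cdh2), while the log2 changes stayed at -0.86 and 1.01. Leaving out 1 tumor library, in a fit that borrows the spread of the NF libraries, also ended the Cdh1 call each time (adjusted p = 0.0877 without gel 2, 0.119 without gel 3, 0.0925 without gel 4 and 0.1196 without gel 5), with log2 changes from -0.94 to -0.77. The Cdh2 call ended without gel 2 (0.133) and without gel 4 (0.145), with a log2 change of 0.92 in each.

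Other markers moved with the tumor libraries, and their part in the result was not tested. Of the 12 epithelial markers 6 fell with Cdh1 in co-culture and none rose (median -0.45), among them the epithelial transcription factors Elf3 (-1.07 ± 0.10 SE, adjusted p = 0.000282) and Grhl2 (-0.96 ± 0.12 SE, adjusted p = 0.00111). Their summed level was 4331 and 5702 CPM alone and 4487 and 5255 CPM in co-culture. The 6 immune markers summed to 301 and 95.1 CPM alone and 82.9 and 37.8 CPM in co-culture, nearly all of it Cd68, while Ptprc, which encodes CD45, had 0 to 2 counts. The 4 glial markers summed to 41.6 and 68.0 CPM alone and 394 and 348 CPM in co-culture, nearly all of it the adhesion molecule Ncam1 (40.96 and 67.0 CPM alone, 392 and 345 CPM in co-culture), with 0 and 1 count of Sox10 alone and 9 and 8 in co-culture. The fibroblast list summed to 73.6 and 43.3 CPM alone and 183 and 118 CPM in co-culture. Of the 9 fibroblast markers that could be tested 7 rose. Of the 6 myoepithelial markers 2 fell (Krt5 and Krt17), of 4 tested endothelial markers 1 fell, and of 2 tested pericyte markers Mcam rose by 2.22 ± 0.22 SE (adjusted p = 0.000421). With the NF share of RNA subtracted, Cdh1 and Cdh2 both passed as before.

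The catenins of tumor cells did not pass the test. Log2 changes in co-culture were -0.11 ± 0.12 SE for Ctnna1, -0.11 ± 0.12 SE for Ctnnb1, 0.09 ± 0.11 SE for Jup and -0.03 ± 0.11 SE for Ctnnd1, with adjusted p from 0.555 to 0.886. For Jup and Ctnnd1 the 2 lines differed in sign, at 0.22 and -0.02 for Jup and 0.10 and -0.14 for Ctnnd1 (13-MCB-17 first).

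In NFs, 7 of 9 members differed between co-culture and NFs alone, 2 higher and 5 lower, against 48.8% of 15013 genes. The members' median log2 change was -0.38, against 0.02 over all genes. Both mesenchymal cadherins fell. Cdh11 was lower in each subset and each gel, by 0.91 to 1.41 on the log2 scale, and fell by 1.11 ± 0.17 SE (adjusted p = 0.000505). Cdh2 fell by 1.13 ± 0.18 SE (adjusted p = 0.000746), with per-library differences from -1.67 to -0.81. For both genes all 4 co-cultured NF libraries were below both libraries of NFs alone. The share of all genes ordered this way is not given here. Of the 12 fibroblast markers 5 fell and 3 rose beside them, and of the 5 pericyte markers 3 rose. Of 5 tested endothelial markers 3 rose (Cdh5, Pecam1 and Egfl7) and 1 fell (Tek), of 4 tested myoepithelial markers 1 rose and 2 fell, and of 2 tested glial markers Ncam1 fell. Of 3 tested immune markers Cd68 rose by 2.84 ± 0.28 SE (adjusted p = 3.982e-05) and Lyz2 fell. The part of these markers in the result was not tested.

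Cdh3 fell by 2.25 ± 0.39 SE (adjusted p = 0.00130), with differences of -3.25 in CD26- NFs of both gels and of -1.09 (gel 4) and -1.31 (gel 5) in CD26+ NFs. Ctnna2 fell by 4.24 ± 0.47 SE (adjusted p = 8.026e-05), with per-library differences from -5.23 to -3.17. Ctnnd1 fell by 0.38 ± 0.13 SE (adjusted p = 0.0346), a call that was lost without gel 4 (adjusted p = 0.0902), without gel 5 (0.0866) and without the filter on low counts (0.0610). Ctnna1 (0.03 ± 0.13 SE, adjusted p = 0.874) and Ctnnb1 (0.12 ± 0.13 SE, adjusted p = 0.485) did not pass.

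The 2 members that rose in NFs were Cdh1 and Jup. Cdh1 went from 0 counts to 245 over 4 libraries, at least 39.0-fold higher. Jup was higher by 1.46 and 1.89 in CD26- NFs (gels 4 and 5) and by 0.71 and 0.89 in CD26+ NFs, and rose by 1.24 ± 0.22 SE (adjusted p = 0.00151). Of the 11 epithelial markers tested 10 rose beside them, and their sum went from 2.25 and 2.98 CPM to 122 to 329.6 CPM. Jup in co-cultured NFs stood at 9.08% and 9.76% of the tumor level of gel 4 and at 11.9% and 10.7% in gel 5, above the marker median of each library. These values lay within the marker range in 3 libraries and above it in CD26- NFs of gel 5. Krt19 alone set the top of that range in all 4 libraries. It stood at 9.79% and 12.75% in gel 4 (CD26- and CD26+) and at 9.19% and 17.7% in gel 5. With the epithelial share subtracted, Jup was 0.76 ± 0.28 SE higher and did not pass (adjusted p = 0.05), and Cdh1 no longer had enough counts to be tested. Cdh2, Cdh3, Cdh11, Ctnna2 and Ctnnd1 passed in the same direction after the subtraction.

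**Figure D3:**
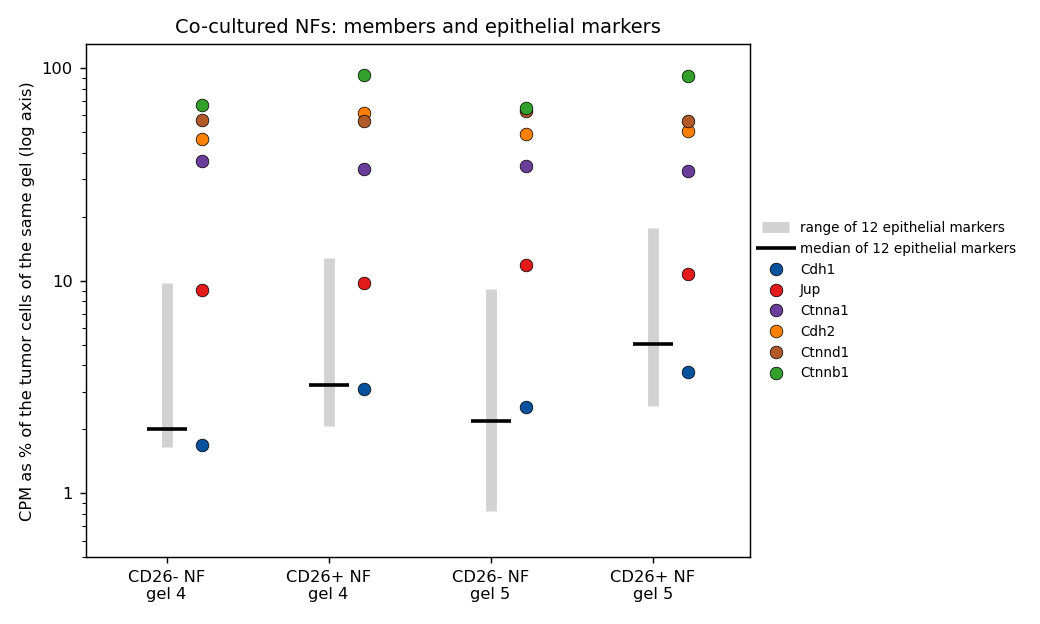
Level of 6 members in each of the 4 co-cultured NF libraries, as a percent of the tumor cells of the same gel, on a log axis. Points are the members, the grey band is the range of 12 epithelial markers and the black line their median. Cdh1 lies at 1.69% to 3.74%, near the marker medians of 2.02% to 5.03%, Jup at 9.08% to 11.9%, and the other 4 members at 32.85% or more.

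The change with co-culture differed between the cell types for 3 of 9 members, against 20.2% of 17048 genes (median -0.14 for the members and -0.06 for all genes). Both libraries of NFs alone come from gel 1, so no alternative below can separate these differences from an effect of that gel. For Cdh2 the change in tumor cells exceeded that in NFs by 2.13 ± 0.35 SE on the log2 scale (adjusted p = 0.00442). It passed under each scaling, filter and tool tried, after the subtraction, and without each library in turn (16 alternatives, 1.86 to 2.46, adjusted p at most 0.0266). Jup had a difference of -1.17 ± 0.24 SE (adjusted p = 0.0114), which was lost without CD26- NFs of gel 1 (-0.84, adjusted p = 0.0724) and after the subtraction (-0.71, adjusted p = 0.0892). Cdh1 passed (adjusted p = 0.000111), but NFs alone were at 0. The subtraction left 0 Cdh1 counts in 3 of the 4 co-cultured NF libraries and 9 in the other, and the Cdh1 call was lost (-3.55 ± 6692 SE). With so few NF counts that fit cannot size the difference.

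No other member passed. Cdh11 had a difference of 2.19 ± 0.73 SE (adjusted p = 0.0673) that rests on 10 tumor counts in all, passed without CD26+ NFs of gel 1 (2.68, adjusted p = 0.0434) and was -2.50 after the subtraction, which left 0 counts in co-cultured tumor cells. Ctnnd1 had 0.35 ± 0.19 SE (adjusted p = 0.243), Ctnna1 -0.14 ± 0.22 SE (adjusted p = 0.740) and Ctnnb1 -0.23 ± 0.19 SE (adjusted p = 0.458). Cdh3 and Ctnna2, at 0 to 2 counts per tumor library, had adjusted p of 0.563 and 0.187.

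**Figure D4:**
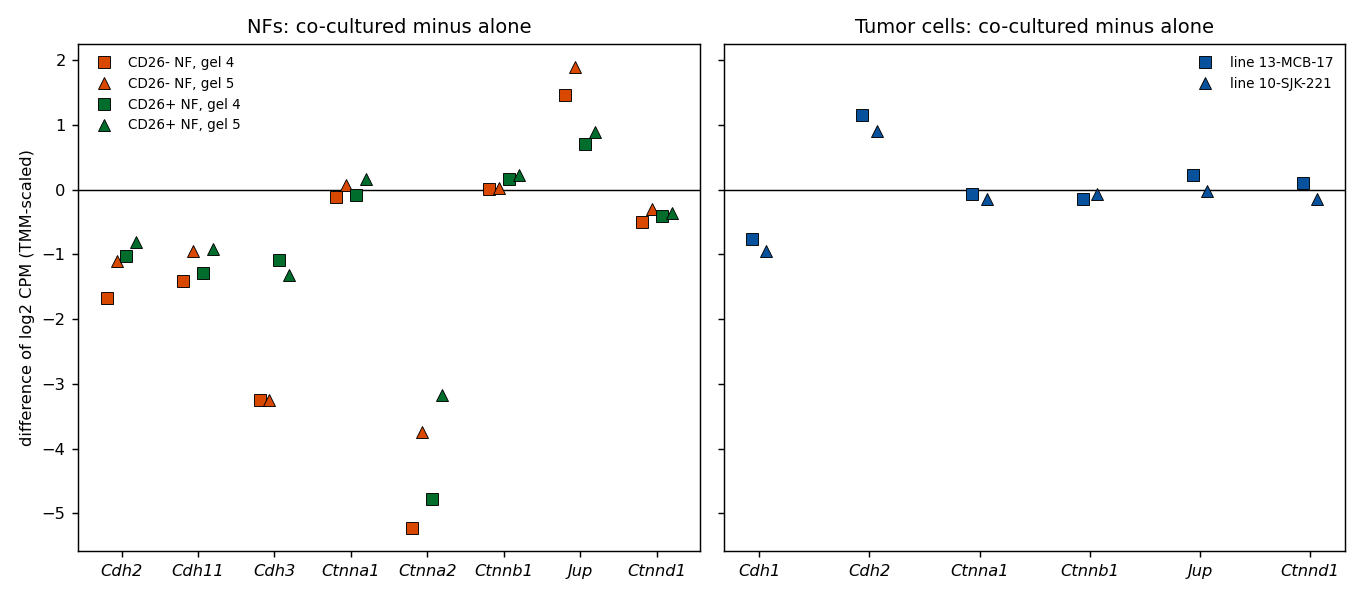
Difference between co-cultured cells and cells alone, in log2 of TMM-scaled CPM, for NFs by subset and gel (left) and for tumor cells by line (right). Each point is 1 co-cultured library minus the library of the same subset or line grown alone, and Cdh1 in NFs is left out because NFs alone had 0 counts. Cdh2 lies below 0 in all 4 NF libraries (-1.67 to -0.81) and above 0 in both tumor lines (1.15 and 0.91), and Ctnna1 and Ctnnb1 stay within 0.23 of 0 in every library.

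Between the NF subsets, 1 of 9 members differed, against 7.53% of 15013 genes (median -0.13 for the members and 0.0040 for all genes). Cdh11 was lower in the CD26+ library of each of the 3 gels, by 0.91, 0.79 and 0.87 on the log2 scale in gels 1, 4 and 5, and fell by 0.84 ± 0.16 SE (adjusted p = 0.0189), a 1.79-fold difference. The call was lost without gel 5 (-0.81, adjusted p = 0.162), when 17 of all genes passed instead of 1130. Among fibroblast markers, 3 of 12 were lower in CD26+ NFs and none higher, and the epithelial list was higher in the CD26+ library of both shared gels (181 against 122 CPM and 329.6 against 150.4 CPM). Of the other marker lists 1 of 5 endothelial and 1 of 5 pericyte markers were higher and 1 of 2 glial markers (Ncam1) lower in CD26+ NFs. Their part in the result was not tested.

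Other members gave values that did not pass. CD26+ NFs had more Ctnnb1 in gels 1, 4 and 5 (675 against 573 CPM, 777 against 565 CPM and 772 against 542 CPM), with a log2 difference of 0.25 ± 0.13 SE (adjusted p = 0.259). Cdh3 was lower in CD26+ NFs of gel 1 by 0.50 and higher in gels 4 and 5 by 1.67 and 1.44, and its overall difference was 0.76 ± 0.40 SE (adjusted p = 0.269), or 1.62 without gel 1 (adjusted p = 0.0131). For the other 6 members the adjusted p ran from 0.177 (Ctnna1) to 0.886 (Jup). Of the called genes 52.2% were higher in CD26+ NFs with TMM scaling, and 81.0% with library totals.

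The change of subsets with culture was called by edgeR in 0 of 9 members, against 0.376% of 16231 genes (median 0.22 for the members and 0.03 for all genes). At an unadjusted p under 0.05 there were 2 members, Cdh3 and Jup, and DESeq2 called 0. For Cdh3 the difference between subsets shifted by 2.12 ± 0.43 SE toward CD26+ NFs in co-culture (adjusted p = 0.0647). NFs grown alone had 1 library of each subset, both from gel 1, so how far the subset difference varies among NFs grown alone was not measured, and the SE and p rest on the spread between the co-cultured gels. The 5 pericyte markers shifted the other way, with a median of -1.85 (Notch3 -2.10, Cspg4 -2.57). Medians of the other marker lists ran from -0.83 (immune) to 0.64 (epithelial). Their part in the result was not tested. Cdh3 was called in 2 of 9 alternatives, with the gel as a replicate block, which pairs the 2 subsets of a gel (2.12, adjusted p = 9.98e-05), and with library totals (2.15, adjusted p = 0.0255). No other alternative with 2 co-cultured gels called it. Without gel 4 or gel 5 its value was 1.98 or 2.25, but each NF group then held 1 library and the spread came from tumor libraries alone, so the p of those fits says nothing of the NFs. The count of all genes was 61 and rose to 395 with the block. Jup had -0.85 ± 0.35 SE (adjusted p = 0.550).

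Between the tumor lines 1 of 6 members differed, against 14.5% of 13197 genes (median 0.03 for the members and 0.0039 for all genes). Cdh2 was higher in 10-SJK-221 than in 13-MCB-17 by 0.60 alone and by 0.37 in co-culture, or 0.46 ± 0.12 SE in the fit with a term for culture (adjusted p = 0.0337). DESeq2 did not call it (0.47, adjusted p = 0.233), nor did the fits without the culture term (0.43, adjusted p = 0.847), over all 10 libraries (0.49, adjusted p = 0.192) or without any 1 of the 4 tumor libraries (0.38 to 0.60, adjusted p at least 0.471). The log2 differences of Cdh1 (-0.01 ± 0.11 SE), Ctnna1 (0.17 ± 0.12 SE), Ctnnb1 (-0.11 ± 0.12 SE), Ctnnd1 (0.03 ± 0.11 SE) and Jup (0.02 ± 0.11 SE) did not pass. Of the called genes 40.99% were higher in 10-SJK-221, and 56.2% with library totals.

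Genes that act with the members were counted by list, with the shares of all genes called given above for each comparison. Of 18 other cadherins, 10 could be tested between cell types, and 4 (alone) and 8 (shared gels) passed, with medians of -0.52 and -1.80. Cdh13, a cadherin without a cytoplasmic tail, was lower in tumor cells in both cultures (adjusted p = 0.000160 and 4.354e-05) with a log2 difference of -5.09 ± 0.60 SE alone. In co-cultured tumor cells 4 of 5 tested rose and none fell (median 1.94, against 0.01 over all genes). Among them Cdh17 rose by 1.94 ± 0.36 SE (adjusted p = 0.00614), and Cdh10 and Cdh15, which ranged over the 4 tumor libraries from 0.163 to 26.0 CPM and from 0 to 5.30 CPM, were higher in co-culture (adjusted p = 0.000144 and 0.000367). In NFs 7 of 9 passed with co-culture, 5 higher and 2 lower.

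Among 10 other catenins and plakophilins, of which 8 were tested, 5 (alone) and 8 (shared gels) passed and all of these were higher in tumor cells (medians 1.80 and 2.08). Plakophilins are desmosomal relatives of p120-catenin, and Pkp2 was higher alone by 2.79 ± 0.20 SE (adjusted p = 8.848e-06). Pkp1 reached 639 CPM in tumor cells and was the 1 member of the list that changed there with co-culture, where it fell by 0.56 ± 0.12 SE (adjusted p = 0.0134). In NFs 6 of 8 passed with co-culture, 2 higher (Pkp1 and Pkp3, highest in tumor cells) and 4 lower, among them Ctnnal1 (-1.04 ± 0.22 SE, adjusted p = 0.00381) and Ctnnbip1, an inhibitor of β-catenin binding to its transcription partners (-1.06 ± 0.16 SE, adjusted p = 0.000510).

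Of 16 partners of the adherens junction, 12 (7 higher and 5 lower in tumor cells) passed alone and 9 (7 and 2) in the shared gels, with medians of -0.14 and 0.45. Afadin (Afdn), which links nectins to actin, was higher in tumor cells alone by 3.94 ± 0.22 SE (adjusted p = 2.271e-06), and Lima1, which links α-catenin to actin, was lower by 3.72 ± 0.18 SE (adjusted p = 1.292e-06). In co-cultured NFs 9 passed, 2 higher and 7 lower, and in co-cultured tumor cells 7 passed, 3 higher (Nectin2, Nectin3 and Nectin4, 0.68 to 0.76) and 4 lower. Between NF subsets 3 passed and all were lower in CD26+ NFs, vinculin (Vcl) by 0.90 ± 0.14 SE (adjusted p = 0.00927).

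Of 9 genes of cadherin turnover, 7 (4 higher and 3 lower in tumor cells) passed alone and 6 (3 and 3) in the shared gels. Adam10, a protease that sheds E- and N-cadherin, was higher in tumor cells alone by 1.40 ± 0.18 SE (adjusted p = 0.000236). In co-culture 3 fell and none rose in NFs, and in tumor cells 1 rose and 1 fell, Adam10 being lower by 0.36 ± 0.10 SE (adjusted p = 0.0388). Of 6 transcription factors known to repress Cdh1, 6 (alone) and 4 (shared gels) passed and all were lower in tumor cells (medians -2.78 and -1.96). Zeb1 was lower by 3.64 ± 0.23 SE alone and Snai2 by 4.88 ± 0.22 SE (adjusted p = 4.401e-06 and 9.182e-07). In co-cultured tumor cells 1 of 5 tested rose, Snai1 by 0.50 ± 0.10 SE (adjusted p = 0.00906). In co-cultured NFs 4 of 6 passed, 1 higher and 3 lower (median -0.41). Twist2 rose by 1.76 ± 0.19 SE (adjusted p = 5.871e-05), while Snai2 fell by 2.52 ± 0.15 SE (adjusted p = 1.684e-06), Snai1 by 0.95 ± 0.14 SE (adjusted p = 0.000553) and Twist1 by 0.49 ± 0.14 SE (adjusted p = 0.0159).

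Over the 10 libraries the genes most like each of 3 cadherins were ranked by Pearson's r of log2(CPM + 1), among 13490 genes with a mean of at least 1 CPM. Likeness to Cdh1 was highest for S100a14 (0.998), Rps6ka1 (0.998) and Elf3 (0.998), and to Cdh11 for Bicc1 (1.00), Col23a1 (1.00) and Rhoj (0.999). For Cdh2, whose pattern crosses the cell types, the values were lower, with Hdac1 (0.950), Alg12 (0.948) and Atg10 (0.946). These are descriptions over libraries that share gels and cell types.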

How the data were processed

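Sequencing of mRNA gave 10 libraries in 6 groups of cell type and culture. The authors deposited raw read counts per gene without normalization. The submitters' processing notes name HISAT2 2.2.1 and GRCm38. The counting program and its use of strand are not given in the sources used here. CPM divides by library totals. RPKM also divides by the exon union length of GENCODE M21.

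Tests used edgeR 4.0.16 (quasi-likelihood, TMM scaling, filterByExpr, Benjamini-Hochberg) in R 4.3.3, over all 10 libraries between cell types, over 6 for NFs and over 4, with a term for line, for tumor cells. DESeq2 1.42.0, which the study's methods use, other scalings, filters, left-out libraries and subtraction of the other population's RNA were alternatives. The scripts were tested on simulated data. Gels pair libraries by design (shared gel). Over 13490 genes the gel 5 minus gel 4 differences, which also hold the tumor line, correlated at 0.215 between NF subsets, 0.162 between CD26- NFs and tumor cells and 0.089 between CD26+ NFs and tumor cells. Intervals and floors (3 counts) cover counting error only. Where groups of libraries are said not to overlap, the share of all genes that separate in the same way is not given. Members and lists were chosen with earlier results of these data known. Named genes were all 9 members, cell type checks, 3 like genes per cadherin and, per list, up to 3 highest and 3 lowest called genes of at least 1 CPM, of which a part is printed. A further gene of the tumor genotype is not reported here. Dpp4, Ncam1, Cd68, Ptprc and Sox10 were added after values were seen.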

Additional observations from a re-analysis of the deposited data

Results flagged for a closer look

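Of the 9 members, 3 changed with co-culture differently in tumor cells and NFs, by the test of that difference itself (edgeR, log2 change in tumor cells minus log2 change in NFs). Of all 17048 genes tested, 20.2% passed the same test. Cdh2 had a difference of 2.13 (adjusted p = 0.00442), with higher levels in co-cultured tumor cells of both lines and lower levels in all 4 co-cultured NF libraries. Jup had a difference of -1.17 (adjusted p = 0.0114), with higher levels in all 4 co-cultured NF libraries and changes of 0.22 and -0.02 in the tumor lines. Cdh1 had a fitted difference of -9.91 (adjusted p = 0.000111), whose size is no bound because NFs alone had 0 counts. The Jup difference did not pass after the epithelial share of RNA was subtracted from NFs. For Cdh1 the subtraction left 0 counts in 3 of the 4 co-cultured NF libraries. Its call was lost (-3.55 ± 6692 SE), in a fit that cannot size the difference.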

How the results depend on the processing

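Of 735 values of single members under alternatives, 673 kept direction and call, 31 lost the call, 7 gained it and 24 changed sign, none of the last called in either setting. The losses and gains of called members stand beside their results. With a log2 fold change above 2 required as well, 5 members (of 3999 genes) passed in the shared gels, 4899 genes alone, 1629 genes for the cell type by culture difference, 3 members (2047 genes) in co-cultured NFs, 0 (192) between subsets, 0 (418) in co-cultured tumor cells and 0 (278) between lines. After the subtraction 1 member kept a cell type by culture difference, Cdh2, and Cdh1 lost its call (-3.55 ± 6692 SE). Between co-cultured NFs and NFs alone, Cdh1 then had too few counts to be tested. Without single libraries that difference was called for 2163 to 3358 genes in all and 2 to 4 members. For subsets these ranges were 17 to 1299 genes and 0 to 2 members, for co-cultured tumor cells 406 to 1014 and 0 to 1, and for lines 401 to 526 and 0. Without a line or culture term no gene passed in tumor cells (0 genes, 0 members, for culture and for line). DESeq2 called 1574 genes for tumor culture and 945 for line (0 members), and the fit over 10 libraries 1817 and 1065 (0 members for line). Without a filter 2917 genes passed for line. The subset by culture difference was called in 123 genes (1 member) with library totals, 18 without a filter, 38 with 1 CPM in 2 libraries, 97 by DESeq2, 34 after subtraction and 395 (1 member, Cdh3) with the gel as replicate block. Without gel 4 or gel 5 it gave 0 genes, but 1 library per NF group was left and the spread came from tumor libraries alone, so this count says nothing of its stability. The replicate block changed no other member call, except that Ctnna2 was not tested under it in the shared gels. Sign changes under library totals were -0.0208 (Ctnna1, NF culture), 0.0330 (Cdh2, subset) and 0.0672 (Cdh1, line). After subtraction they were -0.0495 (Ctnna1, NF culture), -0.20 (Jup, subset) and -2.50 (Cdh11, cell type by culture), and for Cdh1 between lines 0.0177 without a culture term and 0.0125 over 10 libraries. Without single libraries the values ranged from -0.31 to 0.0736 (Ctnna1) and -1.77 to 2.23 (Cdh3) for cell type by culture, from -0.0814 to 0.13 (Ctnna1, NF culture), from -0.28 to 0.0410 (Cdh2) and -0.20 to 0.30 (Jup) for subset, from -0.0361 to 0.14 (Ctnnd1, subset by culture), from -0.01505 to 0.21 (Jup) and -0.13 to 0.0844 (Ctnnd1) for tumor culture, and from -0.0737 to 0.0963 (Cdh1), -0.061 to 0.16 (Ctnnd1) and -0.0681 to 0.15 (Jup) for line. The causes were not tested. The median over all genes shifted to -0.12 (RLE) and 0.13 (library totals) in the shared gels and to 0.16 (library totals) between subsets. Fits without 1 tumor library assume that the lone library varies like the other groups. Levels of Cdh1 in NFs, and of Cdh3, Cdh11 and Ctnna2 in tumor cells, are limited by depth.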
